A study of Mus musculus with 8 samples.

Results

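The Hedgehog genes described here are 9 genes chosen by name: the ligands Shh, Ihh and Dhh, the receptor Ptch1, the signal transducer Smo, the ligand-binding antagonist Hhip and the transcription factors Gli1, Gli2 and Gli3. All 9 were found, with 1 row each, among 24675 named genes, and 7 of them passed the filter on low values and were tested with 12416 genes in all. The study used 8 Affymetrix mouse Gene 2.0 ST arrays, hybridised with RNA from C57Bl/6 embryos at embryonic day 12.5, with no transgene, mutation or treatment named for any group. The dorsal group (4 arrays) came from above the aorta, below the notochord, and the ventral group (4 arrays) from beneath the vessel. Both were cut by laser from stained 20 µm cryosections of the same embryos, and both are mixtures of cell types, so fewer cells of a type and less RNA per cell cannot be told apart. Between 200 and 1000 pg of RNA was amplified per sample. The labels name biological replicates 1 to 4 in each tissue, and a replicate number below joins the dorsal and the ventral array of that number. Whether a number marks 1 embryo or a pool is not given in the labels. If it marks neither, p-values measure only the spread between these samples. Levels are log2 RMA intensities, and differences are ventral minus dorsal on that scale.

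Hedgehog proteins are secreted ligands. In their absence the receptor Ptch1 holds the membrane protein Smo inactive, and ligand binding to Ptch1 releases Smo, which signals in the primary cilium to turn the Gli factors into activators. Ptch1, Gli1 and Hhip are themselves transcribed in responding cells and are widely read as targets, and 2 of them, Ptch1 and Hhip, bind ligand and limit its spread. In the trunk of the embryo, Shh from the notochord and floor plate instructs the sclerotome, the somite tissue that forms vertebrae, and Shh and Ihh from gut epithelium instruct visceral mesenchyme. Dhh is known from Schwann cells, endothelium and the developing testis.

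The widest differences among the 9 genes were those of the targets Ptch1 and Gli1. Ptch1 was 3.23-fold higher in dorsal tissue and Gli1 was 1.65-fold higher, each in 4 of 4 replicate numbers. Gli2 differed little but was also higher in dorsal tissue in 4 of 4 numbers. The differences of Gli2, Gli3, Smo, Shh and Ihh had 95% intervals that included 0. Dhh and Hhip lay under the array median on all 8 arrays. None of the 7 tested genes passed the test (limma with the replicate number as a block, Benjamini-Hochberg adjusted over 12416 genes), and neither did any other gene: 0 of 12416 genes, or 0% of all, had an adjusted p under 0.05. At an unadjusted p under 0.05, 2 of the 7 were lower in ventral tissue (Ptch1 and Gli1) and 0 were higher, against 4.18% and 4.08% of all genes tested and 8.26% (1026 genes) in either direction. In limma fitted with no block, 4 genes passed, which is 0.0322% of all, and 0 of the 7. Then 1 of the 7, Ptch1, had an unadjusted p under 0.05 and was lower in ventral tissue, against 4.02% of all genes, and 0 were higher, against 3.97%.

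**Figure D1:**
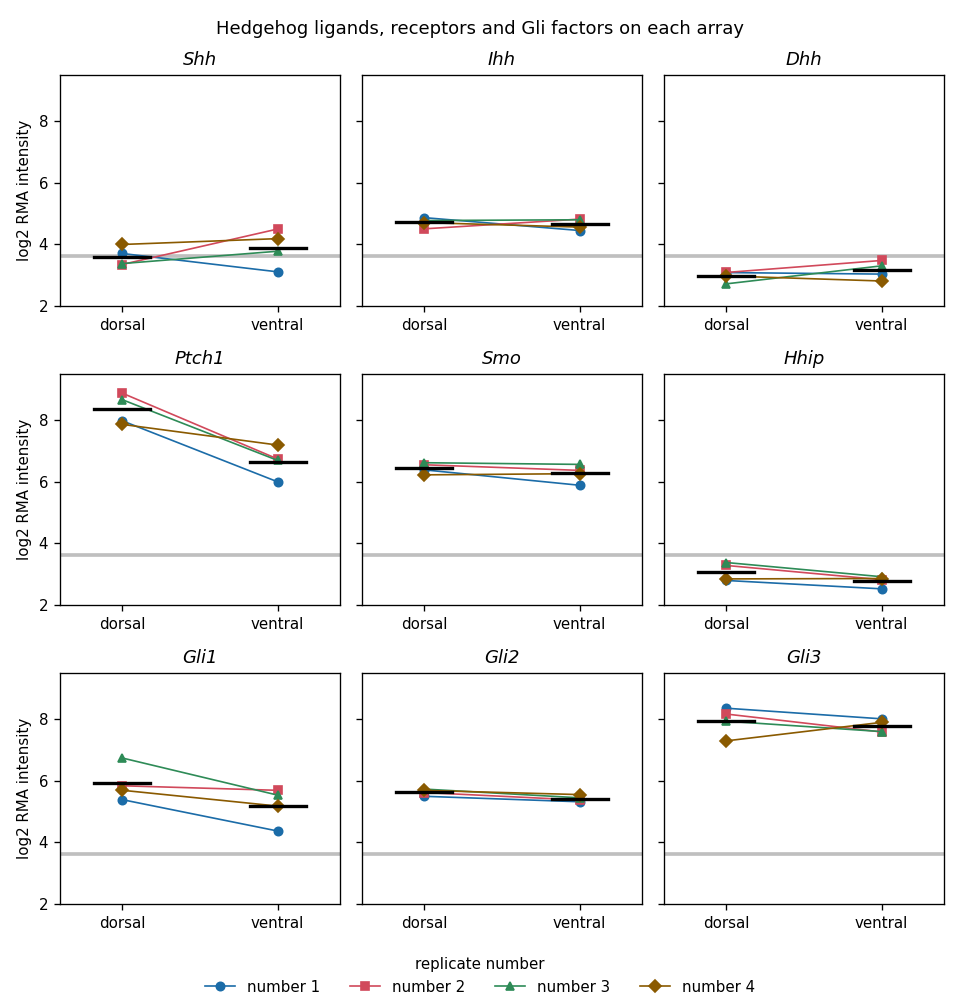
Each panel plots the log2 RMA intensity of 1 gene on the 8 arrays, with dorsal arrays on the left and ventral arrays on the right. Lines join the arrays of a replicate number, short bars are tissue means and the grey band holds the 8 array medians (3.59 to 3.65); levels of different genes have no common scale. Only the Ptch1 panel has groups that do not overlap, and Dhh and Hhip lie under the band throughout.

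Shh (Entrez gene 20423), the ligand of notochord, floor plate and gut epithelium, lay within 1 log2 unit of the array median on every array. Its level was 3.70, 3.34, 3.38 and 3.99 on dorsal arrays 1 to 4 and 3.11, 4.50, 3.78 and 4.18 on ventral arrays 1 to 4. It exceeded the array median on 5 of the 8 arrays. The highest value was ventral array 2, the lowest was ventral array 1, and the dorsal values lay between them. The difference was 0.29 (SE 0.26, 95% interval -0.33 to 0.91), and the adjusted p was 0.838 in limma. Leaving out number 2 gave -0.002 and leaving out number 1 gave 0.58, so neither a direction nor a size was set by these arrays.

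Ihh (Entrez gene 16147), the ligand of gut epithelium and of maturing cartilage, varied least of the 3 ligands in the dorsal group. It stood at 4.87, 4.50, 4.77 and 4.70 on the dorsal arrays and at 4.45, 4.82, 4.80 and 4.56 on the ventral arrays. All 8 values lay above the array medians, and the groups overlapped almost completely. The difference was -0.06 (SE 0.19, 95% interval -0.49 to 0.38, adjusted p = 0.969), and it was below 0 in 2 of 4 replicate numbers. Dhh (Entrez gene 13363) ranged from 2.72 to 3.09 in dorsal and from 2.81 to 3.48 in ventral tissue, under the median of every array, and was not tested. Such a level does not separate weak expression from background.

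Ptch1 (Entrez gene 19206), the receptor that is also a target, had the widest gap of the 9 genes. Its level was 7.98, 8.88, 8.67 and 7.86 on dorsal arrays 1 to 4 and 6.00, 6.74, 6.69 and 7.19 on ventral arrays 1 to 4. Dorsal arrays 2 and 3 were highest, ventral array 1 was lowest, and every dorsal value exceeded every ventral one. Groups that do not overlap, with ventral tissue lower, were found for 1 of the 7 tested Hedgehog genes and for 2.38% of all genes tested. The dorsal mean was 8.35 ± 0.50 and the ventral mean 6.66 ± 0.49 (SD, n = 4 each). The difference was -1.69 (SE 0.26, 95% interval -2.31 to -1.07), with an unadjusted p of 0.00032 and an adjusted p of 0.173 in limma, which put Ptch1 at rank 23 of 12416 genes by p. Within the numbers it was -1.98, -2.14, -1.97 and -0.67. Number 4 thus had the narrowest gap, with the lowest dorsal and the highest ventral value. Without number 4 the difference was -2.03 (SE 0.16, adjusted p = 0.0969).

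The 250 bases before the Ptch1 start site in the RefSeq promoter table (GRCm38.p6, chr13:63565736-63565985, minus strand) are shown because Ptch1 carries the main difference, and those of Gli2 (chr1:119053620-119053869, minus strand) because it too was lower in ventral tissue in every replicate number. Gli1 has no entry in that table. Both are written 5′ to 3′, in lower case, with no base marked.
Ptch1: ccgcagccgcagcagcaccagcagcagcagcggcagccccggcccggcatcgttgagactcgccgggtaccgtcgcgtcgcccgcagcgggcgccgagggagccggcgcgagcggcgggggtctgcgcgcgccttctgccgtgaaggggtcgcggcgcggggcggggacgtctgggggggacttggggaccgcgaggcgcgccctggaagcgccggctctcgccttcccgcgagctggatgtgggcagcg
Gli2: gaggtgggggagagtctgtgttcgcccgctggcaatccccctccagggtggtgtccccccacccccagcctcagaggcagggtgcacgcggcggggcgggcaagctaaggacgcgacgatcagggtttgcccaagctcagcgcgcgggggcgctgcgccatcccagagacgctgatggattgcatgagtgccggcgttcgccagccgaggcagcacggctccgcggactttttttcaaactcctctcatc
The Ptch1 stretch is 78.4% G or C and the Gli2 stretch 67.2%, against a median of 52.4% over 32851 promoters. The binding motif of Gli factors was searched as its 9 letters TGGGTGGTC on both strands of the 300 bases that run from 250 before to 50 after the start, overlaps allowed. It was in 0 of the 7 Hedgehog promoters in the table (all but those of Shh and Gli1) and in 0.253% of all promoters. With 1 letter changed it was still in 0 of the 7, against 6.74% of all. These letters are thus not in these windows, which do not reach the more distant elements of a gene.

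Smo (Entrez gene 319757), the membrane protein that Ptch1 restrains, showed little difference. It stood at 6.39, 6.55, 6.62 and 6.22 in dorsal and at 5.89, 6.37, 6.56 and 6.26 in ventral tissue. Ventral array 1 was lowest and the other 7 values lay between 6.22 and 6.62. The difference was -0.17 (SE 0.18, 95% interval -0.59 to 0.24, adjusted p = 0.856). An effect of the size seen for Ptch1 lies outside that interval. Hhip (Entrez gene 15245), the antagonist at the cell surface, ranged from 2.80 to 3.38 in dorsal and from 2.52 to 2.92 in ventral tissue. Every value was under the array median, so it was not tested with the other genes. Its means were 3.08 ± 0.30 and 2.78 ± 0.18 (SD, n = 4). With no filter on low values the difference was -0.30 (SE 0.12), with an unadjusted p of 0.0415 and an adjusted p of 0.783 in limma.

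Gli1 (Entrez gene 14632), an activator whose transcription depends on the pathway, stood at 5.39, 5.84, 6.74 and 5.69 on dorsal arrays 1 to 4 and at 4.37, 5.69, 5.53 and 5.18 on ventral arrays 1 to 4. Dorsal array 3 was the highest and ventral array 1 the lowest. Ventral arrays 2 and 3 lay above dorsal array 1, so the groups overlapped. The difference was -0.72 (SE 0.23, 95% interval -1.26 to -0.18), with an unadjusted p of 0.0154 and an adjusted p of 0.448 in limma. Within the numbers it was -1.02, -0.15, -1.21 and -0.51. Without the block the unadjusted p was 0.0676 and the adjusted p 0.663. In that fit the difference was -0.45 without dorsal array 3 and -0.45 without ventral array 1.

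Gli2 (Entrez gene 14633), the main activator in many tissues, had the narrowest spread of the 3 Gli genes. It stood at 5.50, 5.62, 5.73 and 5.69 in dorsal and at 5.32, 5.37, 5.45 and 5.55 in ventral tissue. Ventral array 4 lay above dorsal array 1 and the other ventral values lay below all dorsal ones. The difference was -0.21 (SE 0.17, 95% interval -0.60 to 0.18, adjusted p = 0.803), and its SD over the numbers was 0.07. A difference below 0 in all 4 numbers was seen for 3 of the 7 tested Hedgehog genes (Ptch1, Gli1 and Gli2) and for 8.46% of all genes tested. Gli3 (Entrez gene 14634), whose protein is cut to a repressor when the pathway is off, stood at 8.35, 8.17, 7.93 and 7.29 in dorsal and at 8.01, 7.58, 7.60 and 7.89 in ventral tissue. Dorsal array 4 was the lowest of the 8 and dorsal array 1 the highest. The difference was -0.17 (SE 0.22, 95% interval -0.67 to 0.34, adjusted p = 0.899). It was 0.60 in number 4 and -0.34 to -0.58 in the others, and without number 4 it was -0.42 (SE 0.16, adjusted p = 0.553). Array transcript levels do not show the cutting of the Gli3 protein.

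**Figure D2:**
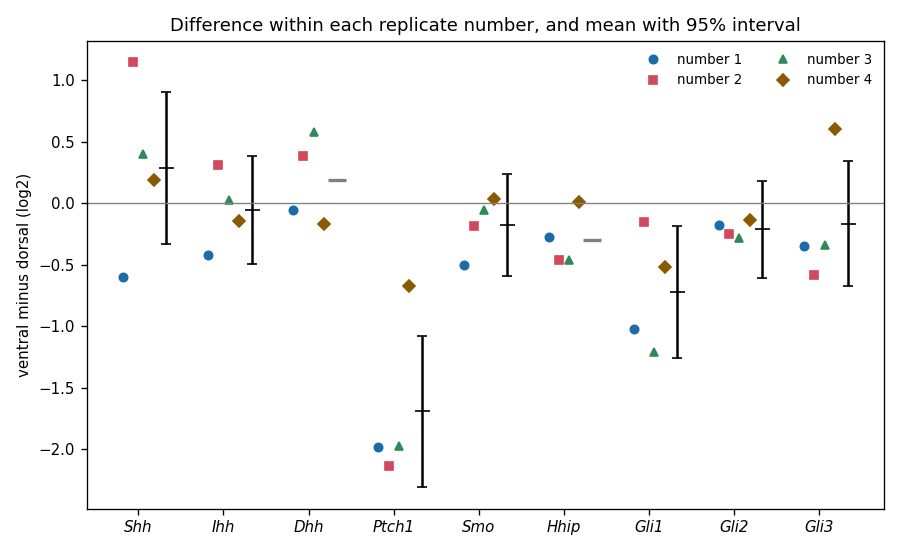
Points give the ventral minus dorsal difference (log2) within each of the 4 replicate numbers, and bars at their right give the limma mean with its 95% interval; grey dashes give the mean for Dhh and Hhip, which were not tested. Ptch1 lies between -2.14 and -0.67, while Shh spans -0.60 to 1.15.

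Set side by side within each number, Shh went the other way from Ptch1 and Gli1 in 3 of 4 numbers and the same way in number 1. In number 1 the difference was -0.60 for Shh, -1.98 for Ptch1 and -1.02 for Gli1. In number 2 it was 1.15 for Shh, -2.14 for Ptch1 and -0.15 for Gli1. In number 3 it was 0.40 for Shh, -1.97 for Ptch1 and -1.21 for Gli1, and in number 4 it was 0.19, -0.67 and -0.51 in the same order. Shh was thus higher in ventral tissue in 3 of 4 numbers, and both targets were lower in all 4. The number with the widest Shh difference, number 2, had the widest Ptch1 difference and the narrowest Gli1 difference. Of the 7 tested genes 6 had a difference below 0, as did 50.8% of all genes tested, and their median was -0.17 against 0.00 over all genes. These members were chosen by name, so the counts describe them and carry no test of their own.

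Among proteins that release or carry the ligand, 6 of 8 listed genes were tested, and 0 passed the test. Their median difference was 0.02, with 3 lower and 3 higher. Ext1, which builds the heparan sulphate chains that ligands bind, stood at 7.66, 7.29, 7.69 and 6.76 in dorsal and at 7.85, 7.92, 8.11 and 7.73 in ventral tissue. All its ventral values exceeded its dorsal ones, with a difference of 0.55 (SE 0.17, adjusted p = 0.445); groups that do not overlap in this direction made up 2.01% of all genes. Scube1, a secreted protein of the Scube family that helps free ligand from cells, differed by 0.71 (SE 0.23, adjusted p = 0.452). Disp1, the transporter that releases ligand, differed by -0.21 (SE 0.18).

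Of 8 listed co-receptors and binding proteins 5 were tested and 0 passed the test. In limma, 4.18% of all genes tested were lower in ventral tissue at an unadjusted p under 0.05, and 4.08% were higher. The median of the 5 was 0.13, with 1 of 5 below 0 (50.8% of all genes tested), and that 1 was the only one with an unadjusted p under 0.05. Gas1, a co-receptor that raises ligand binding, ranged from 3.69 to 3.98 in dorsal and from 4.06 to 4.25 in ventral tissue. Its groups did not overlap, as in this direction for 2.01% of all genes tested, and its difference was 0.31 (SE 0.14, adjusted p = 0.649). Boc, another co-receptor, differed by 0.40 (SE 0.21, adjusted p = 0.71). Gpc3, a glypican that competes with Ptch1 for ligand, was that gene, at -0.36 (SE 0.10, adjusted p = 0.406).

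The steps between Smo and Gli differed little. Of 24 listed regulators, 20 were tested, and 12 were lower (50.8% of all genes tested) and 8 higher in ventral tissue. The median was -0.01 and 0 passed the test. Spop, an adaptor that sends Gli proteins to degradation, ranged from 7.06 to 7.37 in dorsal and from 6.73 to 6.97 in ventral tissue. Those groups did not overlap, as in this direction for 2.38% of all genes tested, with a difference of -0.43 (SE 0.16, adjusted p = 0.536). Sufu, which holds Gli factors in the cytoplasm, differed by -0.30 (SE 0.15, adjusted p = 0.657), and Tulp3, which brings receptors into the cilium, by 0.35 (SE 0.18, adjusted p = 0.678). Of 20 genes of cilium assembly and transport, 19 were tested, 11 were lower and 8 higher, with a median of -0.02 and 0 past the test. Ift57, a transport particle subunit, stood at 6.69, 6.55, 6.72 and 5.96 in dorsal and at 7.73, 6.91, 8.18 and 7.09 in ventral tissue, a difference of 0.99 (SE 0.21, adjusted p = 0.243). Dync2h1, the motor that returns particles to the cell body, went the other way with -0.52 (SE 0.18, adjusted p = 0.497), and Ift88, another transport particle subunit, had -0.41 (SE 0.20, adjusted p = 0.668).

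Genes known as Hedgehog targets in particular tissues are given by tissue, and the lists were not tested against each other. All 5 sclerotome targets were below 0 (median -1.09), 4 of them at an unadjusted p under 0.05 and 0 at an adjusted one with the block. Of all genes tested, 50.8% were below 0, and 4.18% were lower in ventral tissue at an unadjusted p under 0.05 in limma. Pax1, a sclerotome transcription factor, ranged from 5.12 to 6.72 in dorsal and from 3.36 to 3.91 in ventral tissue, and Pax9, its paralog, from 6.06 to 6.83 and from 4.15 to 4.94. Pax9 had an adjusted p of 0.0717 with the block and 0.0294 without it. Nkx3-2, which acts after Pax1 and Pax9, differed by -0.86 (SE 0.18, adjusted p = 0.242). In visceral mesenchyme 3 of 4 targets were below 0, with a median of -0.45 and 0 past the test. Foxf2 was at 4.17, 5.19, 6.47 and 5.81 in dorsal and at 3.46, 4.54, 3.59 and 4.71 in ventral tissue (difference -1.34, SE 0.38, adjusted p = 0.378). Foxl1 differed by -0.45 (SE 0.19, adjusted p = 0.597). Foxf1 differed by -0.44 (SE 0.35, adjusted p = 0.797). All 3 are forkhead factors of gut mesenchyme. Of 5 targets in the ventral neural tube only Foxa2 and Nkx2-9 passed the filter, at differences of 0.05 (SE 0.13) and -0.25 (SE 0.17).

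Growth-related targets had no common direction, with 3 of 7 below 0 (50.8% of all genes tested), a median of 0.05 and 0 past the test. Sfrp1, a secreted Wnt inhibitor, differed by 0.80 (SE 0.19, adjusted p = 0.287). Cyclin D2 (Ccnd2) differed by -0.44 (SE 0.13, adjusted p = 0.428). The growth factor Igf2 differed by -0.45 (SE 0.14, adjusted p = 0.435).

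**Figure D3:**
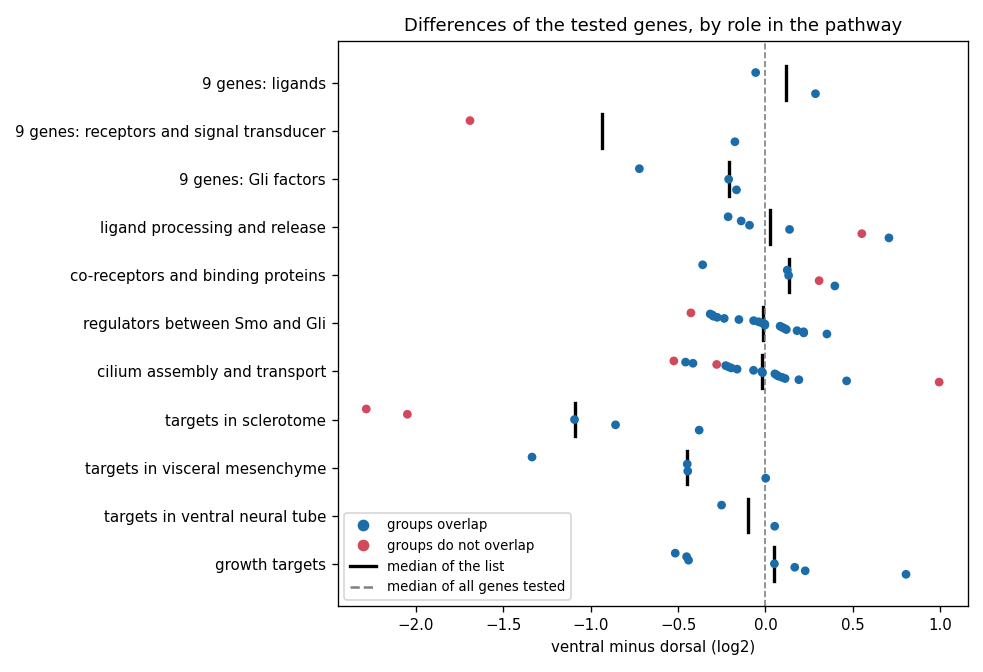
Each point is a tested gene placed by its ventral minus dorsal difference (log2), in rows by role; red points have groups that do not overlap, black bars are list medians and the dashed line is the median of all genes tested. The points farthest to the left are Pax1 (-2.28), Pax9 (-2.05), Ptch1 (-1.69) and Foxf2 (-1.34), while the regulators between Smo and Gli centre on -0.01.

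Sclerotome markers were higher in dorsal tissue, as was Ptch1. Pax1, Pax9, Nkx3-2 and Sox9 are in this list and among the sclerotome targets above, so the 2 lists share values and are not separate evidence. Genes high in dorsal tissue alone could pass the filter through its 4 arrays. The list had 12 genes, all in the table, and its summed level ranged from 63.7 to 79.6 in dorsal and from 49.9 to 52.5 in ventral tissue. All 9 tested genes were below 0 (50.8% of all genes tested). Of the 12, 1, Matn1, was under the median on every array, as were 9756 of all 24675 named genes. Dorsal arrays 2 and 3 had the highest list means, 6.63 and 6.28, and the highest Ptch1, while dorsal arrays 1 and 4 had 5.46 and 5.31. Within ventral tissue this did not hold: the list means were 4.28, 4.26, 4.37 and 4.16 on arrays 1 to 4, and array 4, with the lowest mean, had the highest ventral Ptch1. Col2a1, the cartilage collagen, ranged from 6.93 to 8.18 in dorsal and from 4.57 to 5.04 in ventral tissue. Markers of other cells differed too. Tcf21, a factor of visceral mesenchyme and mesothelium, ranged from 2.72 to 3.80 in dorsal and from 4.93 to 8.01 in ventral tissue (difference 3.30, SE 0.38, adjusted p = 0.0717). Of the smooth muscle genes, Actg2 differed by 1.99 (SE 0.32, adjusted p = 0.181) and Cnn1 by 2.28 (SE 0.63, adjusted p = 0.377). Tbx18, in the mesothelium list, differed by -1.19 (SE 0.21, adjusted p = 0.201). The part of these cell mixtures in the Ptch1 difference was not tested.

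Among markers of cells known to make Hedgehog ligands, those particular to notochord were near or under the array median. Several of the endothelial list were above it. So were 4 of the gut epithelium list, among them Krt8 and Krt18, which the notochord list shares. Over all 24675 named genes, 10184 exceeded the median on all 8 arrays and 9756 on none. The counts of each list below stand against these. Of the notochord list 7 of 8 genes were in the table, and T was not. Noto, Foxa1 and Foxj1 were under the median on all 8 arrays, and Foxa2 ranged from 3.37 to 3.83. The summed level of the list was 24.8 to 30.8 in dorsal and 24.8 to 28.9 in ventral tissue, most of that spread coming from the keratins Krt8 and Krt18, which epithelia also make. The gut epithelium list was at 36.7 to 47.8 in dorsal and 41.4 to 44.4 in ventral tissue, so the dorsal range held the ventral one. All 7 tested genes, of 10 listed, had a difference above 0, while 50.8% of all genes tested were below 0. Of the 10 listed, 4 exceeded the median on every array (Cdh1, Krt8, Krt18 and Hnf4a), and Hnf4a is also in the liver list. Foxa1 and Cldn7 were under the median on all 8 arrays, and Foxa2 exceeded it on 4. Epcam, an epithelial adhesion protein, differed by 0.45 (SE 0.19, adjusted p = 0.594), and only it had an unadjusted p under 0.05 in limma. Of all genes tested, 4.08% were higher in ventral tissue at that threshold. Ventral tissue was higher in 3 of 4 numbers for Epcam and Krt19. It was higher in 2 for Cdh1, Krt8, Krt18 and Foxa2 and in 1 for Hnf4a. Foxa1, not tested, was lower in ventral tissue in 4 of 4. The Schwann cell precursor list, of which 5 of 7 genes were in the table, was at 17.7 to 18.9 in dorsal and 16.8 to 19.25 in ventral tissue. The endothelial list was at 34.1 to 44.5 in dorsal and 39.6 to 42.5 in ventral tissue, and 5 of its 8 genes exceeded the median on every array, among them Pecam1 at 5.03 to 5.95. Of its 7 tested genes 6 had a difference above 0 and 1 below, while 50.8% of all genes tested were below 0. In limma Kdr differed by 0.85 (SE 0.30, adjusted p = 0.517) and Pecam1 by 0.37 (SE 0.21, adjusted p = 0.728). Tek went the other way, at -0.62 (SE 0.27, adjusted p = 0.622). Of 7 steroidogenic markers, which would reveal adrenal or gonad, 4 were under the median on all 8 arrays, and the list was at 20.5 to 21.1 in dorsal and 20.6 to 24.1 in ventral tissue. Mc2r, in this list, was at 5.09 on ventral array 3 and at 2.30 to 2.74 on the other arrays.

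**Figure D4:**
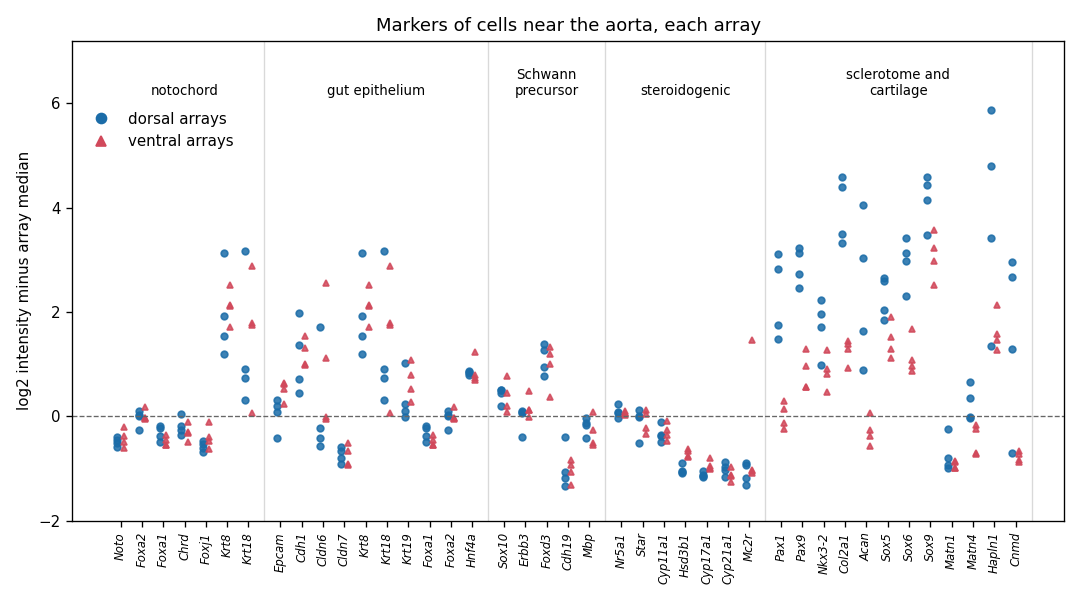
Points give the log2 intensity minus the median of that array for each marker gene, with dorsal arrays as blue circles and ventral arrays as red triangles; the dashed line at 0 is the array median. Noto and Foxa1 lie under the line on every array, and Pax9 and Col2a1 have dorsal values above all their ventral ones.

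Some arrays had high levels of genes of neighbouring organs. Array medians lay between 3.59 and 3.65, and arrays correlated across genes at 0.907 to 0.957. Afp, a fetal liver protein, was at 10.62 on dorsal array 4 and 9.69 on ventral array 4, and at 3.12 to 3.43 on the other 6 arrays. The liver list was summed at 22.6 to 48.2 in dorsal and 22.1 to 38.8 in ventral tissue. Number 4 is also where the Ptch1 difference was narrowest and the Gli3 difference turned, and the values without it are given above. In that number Smo (0.04) and Hhip (0.01) were also above 0. Whether tissue of neighbouring organs has a part in any of these differences was not tested. Sox2, a neural factor, was at 7.83 on dorsal array 1, 4.93 on ventral array 1 and 4.51 on ventral array 3, and at 2.34 to 3.61 on the others. Tubb3, also in the neural tube list, was at 8.85, 8.11 and 7.07 on the same arrays in that order. On the others it was at 3.87 to 5.34. Without number 1 the difference was -1.59 for Ptch1 (adjusted p = 0.178) and -0.62 for Gli1 (adjusted p = 0.606).

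**Figure D5:**
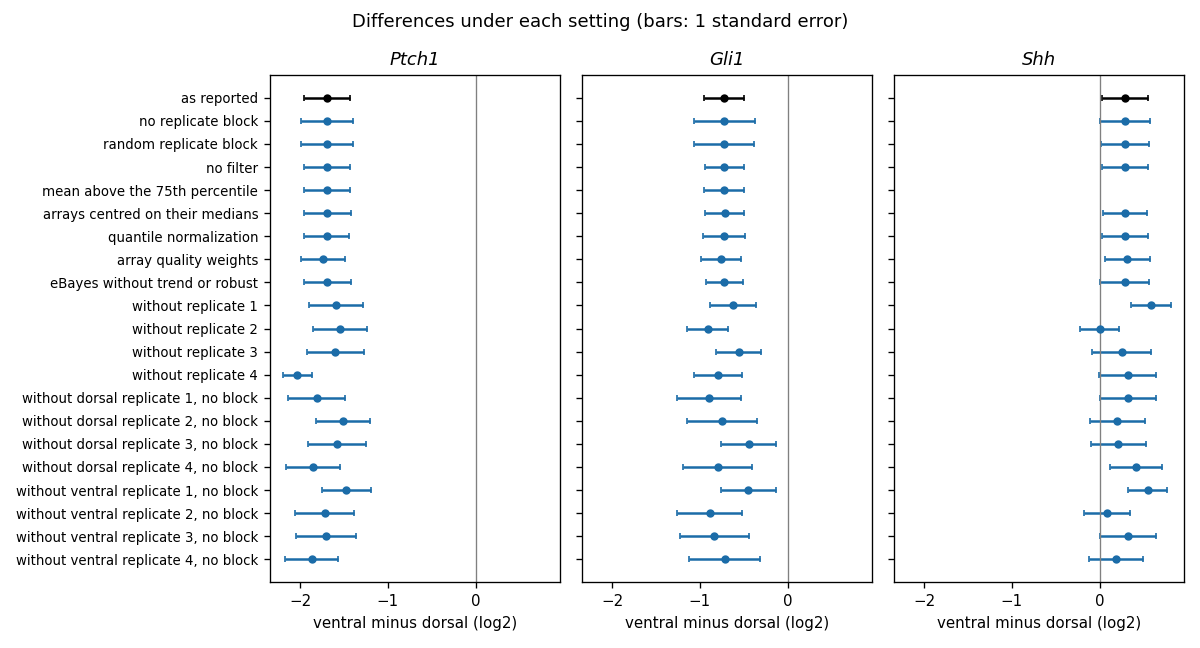
Points give the ventral minus dorsal difference (log2) of Ptch1, Gli1 and Shh under each setting, with bars of 1 standard error; black marks the values reported above, and Shh has no value under the filter at the 75th percentile. Ptch1 stays between -2.03 and -1.47 and Gli1 between -0.91 and -0.45, while Shh runs from -0.002 to 0.58.

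The genes whose pattern over the 8 arrays was most like that of Ptch1 were Lrig1 (Pearson r = 0.998), Htt (0.972), Kat14 (0.962), Angptl1 (0.956) and Phf2 (0.953). These r values are the highest of 12416 genes, describe arrays that share dissection and amplification, and contain the tissue difference. Lrig1, a membrane protein that dampens growth factor receptors, ranged from 6.07 to 7.29 in dorsal and from 4.00 to 5.51 in ventral tissue. As for Ptch1, dorsal arrays 2 and 3 were highest and ventral array 1 was lowest. Its difference was -1.83 (SE 0.32, adjusted p = 0.202). After each tissue mean was subtracted, Lrig1 was again first (0.9985), followed by Elk4 (0.978), Washc1 (0.970), Pard6g (0.967) and Pdzrn3 (0.964). For Shh the closest were Maff (0.941), Pfdn1 (0.937), Trbj2-3 (0.929), 4930594O21Rik (0.926) and Gm16141 (0.925) over the 8 arrays. After the tissue means were subtracted they were Smok2b (0.983), Nrl (0.976), Hdgfl3 (0.965), Klk4 (0.961) and Iqgap2 (0.956). None of the 5 Shh neighbours by values was among those by deviations.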

How the data were processed

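The deposited values are log2 intensities. Per the submitters' processing notes, the authors made them in Affymetrix Expression Console by RMA (background correction, equalised arrays, summarised probes); versions, array definition and genome build are not given in the sources used here. A difference is therefore relative to other genes on the array. Of 25429 rows, 24675 had 1 symbol in the platform table, updated by Entrez number from RefSeq (GRCm38.p6), 0 had several and 754 had none and were not used. Genes above the array median on at least 4 of 8 arrays were tested with limma 3.58.1 in R 4.3.3 (lmFit, eBayes with trend and robust estimation, two-sided, Benjamini-Hochberg, threshold 0.05), checked on simulated data. The number of arrays limits the precision.

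The replicate number was a fixed block, because the labels say both tissues came from the same embryos. Same-numbered arrays deviated from their tissue means with r = 0.02 to 0.12 across genes (2 of 4 above 0.1), and other pairs with -0.13 to 0.10, so neither the labels nor these correlations establish that equal numbers pair embryos; the fit without the block stands beside the counts. Promoters came from RefSeq (GRCm38.p6), and figures used matplotlib 3.10.9.

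The 9 members, the 22 gene lists (166 genes, 155 in the table) and the tests were chosen with earlier results of these data known. Named genes were the members, from each list described up to 3 tested genes of smallest p, and the 5 closest in pattern to Ptch1 and Shh by each measure. Other names (Afp, Noto, Foxa1, Foxj1, Matn1, Cdh1, Cldn7, Mc2r, Sox9, Tubb3) were taken after their values were seen. The lists of smooth muscle, mesothelium, erythroid and neural tube markers served as checks: their summed levels were 30.7 to 34.4, 31.9 to 39.3, 39.8 to 49.2 and 27.0 to 40.7 in dorsal tissue and 32.8 to 43.0, 36.0 to 41.5, 39.8 to 44.1 and 26.7 to 32.5 in ventral tissue.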

Additional observations from a re-analysis of the deposited data

Results flagged for a closer look

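None of the 9 Hedgehog genes had an array that stood apart from the other 3 of its tissue. Over 79 named genes, or 158 groups of 4 arrays, 8 groups had one whose gap to its neighbour, as a share of the range, exceeded Dixon's 95% critical value, and chance gives about 1 in 20. The low ones were Gpc3 on ventral array 1 (9.63, others 10.2 to 10.3), Foxf1 on dorsal array 1 (4.38, others 5.52 to 5.74) and Erbb3 on dorsal array 2 (3.19, others 3.68 to 3.73). The high ones were Zic1 on dorsal array 1 (6.72, others 3.58 to 4.03), Zic1 on ventral array 3 (3.97, others 2.81 to 2.93) and Cnn1 on dorsal array 3 (5.21, others 3.74 to 3.96). On dorsal array 4 they were Apoa1 (6.38, others 3.77 to 3.95) and Apoa2 (10.1, others 4.14 to 4.54).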

How the results depend on the processing

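Over 20 alternatives, 0 Hedgehog genes were called, and Ptch1, Gli1, Gli2, Smo and Gli3 kept a difference below 0 in each. The number of genes called was 0 with the replicate block, 4 with no replicate block, 4 with a random replicate block and 10 with the filter at the 75th percentile; leaving out 1 replicate gave 0 to 20. The highest, 20, was without ventral replicate 1 and without the block; in such fits 8 were called without dorsal replicate 1 and 9 without dorsal replicate 4. With the block, leaving out number 1 gave 9. The cause was not tested. Ptch1 ranged from -2.03 to -1.47 and had its smallest adjusted p, 0.095, with the 75th percentile filter, which tested 6156 genes, and its largest, 0.643, without replicate 3. Gli1 ranged from -0.91 to -0.45, with adjusted p of 0.386 to 0.87. Shh turned to -0.002 without replicate 2 and had a range of -0.002 to 0.58 when 1 replicate was left out. Ihh turned to 0.0647 without replicate 1 and to 0.013 without ventral replicate 1 and without the block, over a range of -0.18 to 0.0647. The filter at the 75th percentile removed both genes and gave no value for them. Signal near background limits Shh, Dhh and Hhip.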
